A study of Mus musculus with 6 samples.

Results

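Replication-dependent histone genes encode the linker histone H1 and the core histones H2A, H2B, H3 and H4 that package newly made DNA. Their messenger RNAs normally end in a short stem-loop instead of a poly(A) tail: the stem-loop binding protein SLBP holds the loop and the U7 small nuclear ribonucleoprotein directs the cut behind it, with no polyadenylation. Most histone mRNA is made in S phase and is degraded when DNA synthesis stops, whereas some of the same genes also give longer transcripts that are cleaved at a conventional signal and polyadenylated, a form known from differentiating and non-dividing cells. Because the libraries described here were made from poly(A)-selected RNA, they measured the polyadenylated histone transcripts together with any tailless RNA that was carried through the selection, and these could not be told apart.

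The members were the loci of the count table with a gene name that begins with Hist1h, Hist2h, Hist3h or Hist4h and with at least 10 counts in 3 or more of the 6 libraries. This rule kept 24 of 68 histone loci, out of 51499 loci in the table. The 24 loci held 26 histone genes, because 3 loci join genes: Hist1h1e with Hist1h2be, Hist2h2aa1 with Hist2h3c1, and Hist3h2a with Trim17, which is no histone gene. In the mouse genome build GRCm38, 22 of the 26 genes lie on chromosome 13 between positions 21722044 and 23757409, 3 lie on chromosome 3 between 96221119 and 96248509, and Hist3h2a lies on chromosome 11.

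The study asked how cells respond to loss of YME1L, a protease of the mitochondrial inner membrane. Wild-type (WT) mouse embryonic fibroblasts (MEFs) were transfected with a scrambled siRNA (Scr) or with Yme1l siRNA and collected after 72 h, with 3 independent cultures in each group, and both groups were the same WT MEF line. The labels call these cells 3T3 immortalized, whereas the methods describe WT MEFs with loxP-flanked Yme1l alleles that were immortalized with SV40 large T antigen and expanded as individual clones, so the culture replicates do not sample different cell lines. By the methods, cultures started from equal cell densities and were confluent when collected. In such bulk samples, fewer cells in a given state and less RNA per cell cannot be told apart.

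The libraries held 37260605 to 45205207 counts. Yme1l1, the target of the siRNA, stood at 170, 171 and 171 CPM (the count as a share of the scaled library total, times 1000000) in the Scr cultures and at 31.6, 23.4 and 45.0 CPM in the Yme1l siRNA cultures. The groups did not overlap, and the level fell by 2.36 on the log2 scale (SE 0.20, adjusted p = 3.87e-05, edgeR's quasi-likelihood test). Of 14499 loci tested, 4123 were higher (28.4%) and 4288 were lower (29.6%) after Yme1l siRNA at an adjusted p under 0.05, together 58.0%, with a median log2 fold change of 0.01 over all tested loci. Fibroblast markers summed to 35142 to 42348 CPM in Scr and to 18883 to 23465 CPM after Yme1l siRNA, and 8 of 9 tested markers fell. Thy1 was close to 0 in all 6 libraries. Markers of other cell types summed to 27.5 to 59.9 CPM, with Cd68 making up most of the sum and Myh6 at 0 in every library. Krt8, a keratin of simple epithelia, rose from 0.0231, 0.0277 and 0.0237 CPM to 0.541, 0.713 and 0.546 CPM (adjusted p = 7.63e-05). The part of these marker changes in the histone values was not tested.

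The elements at which a histone transcript can end, the stem-loop or a poly(A) signal, are shown first. Which end was used in these cells was not measured. Each line gives the sense strand of a GENCODE transcript 5′ to 3′, with the stem-loop in capitals and 5 bases on each side in lower case. The genes are members that were called in either direction. Hist1h2ac met the count rule in every library of Scr alone, and Hist1h4c in every library of Yme1l siRNA alone. The calls of these genes are therefore no support for a direction. The capitals lie at chr13:23739512-23739527 on the plus strand for Hist1h1c and, on the minus strand, at chr13:23683477-23683492 for Hist1h2ac, chr13:23745047-23745062 for Hist1h3c, chr13:22040966-22040981 for Hist1h4i and chr13:23698089-23698104 for Hist1h4c.
Hist1h1c: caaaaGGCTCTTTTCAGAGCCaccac
Hist1h2ac: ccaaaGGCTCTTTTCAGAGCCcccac
Hist1h3c: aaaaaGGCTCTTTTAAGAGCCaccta
Hist1h4i: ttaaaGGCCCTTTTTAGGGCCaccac
Hist1h4c: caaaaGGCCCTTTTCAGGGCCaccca

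The letters searched on the sense strand were GG, any pair of bases, CTTTT, any base, AG, any pair of bases and CC. They were found in 98 of 58797 protein-coding transcripts (0.167%) and, read on the antisense strand, in 26 (0.0442%). By gene, 72 of 21877 protein-coding genes held them, of which 44 were replication-dependent histone genes.

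Many of these transcripts were annotated far beyond the stem-loop. In Hist1h1c the transcript runs 840 bases past it, and in Hist1h4i it runs 330 bases past it. The next lines show, as the ends that a conventional cleavage would use, the last poly(A) signal in 3 members, with the hexamer AATAAA or ATTAAA in capitals and 10 bases on each side.
Hist1h1c: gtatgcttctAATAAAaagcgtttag
Hist2h2be: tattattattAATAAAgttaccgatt
Hist1h4i: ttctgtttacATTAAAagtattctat

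A hexamer of this kind within the last 50 bases of an annotated transcript was found for 8 of the 24 members. Among all 68 histone loci, 17 had one, and 8 of these 17 were members, against 16 members among the 51 loci without one. The median of the mean count per locus was 8.50 with a signal and 6.50 without. The stem-loop letters were found in a transcript of 19 of the 23 members that could be tested, and not in Hist1h2bc, Hist2h2be, Hist1h2bq and Hist1h4k. Sequence past the annotated transcript ends was not searched, so the letters may lie there.

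The promoters were searched for elements known from histone genes, on both strands from 250 bases before to 50 after the start (RefSeq, GRCm38.p6; 24 of the 26 member genes matched). The H4 element GGTCCG was found in 5 of 5 H4 promoters and in 6 of all 24, against 8.31% of 32544 promoters. In Hist1h4b the match lay within the 50 bases after the RefSeq start, and in the others before it. The H1 box AAACACA was found in 3 of 3 H1 promoters and in 4 of all 24, against 7.2% of promoters. CCAAT was present in 21 of 24 (37.4% of all promoters), TATAAA in 11 (13.6%) and the octamer ATTTGCAT in 5 (1.75%). None of these motifs contains another. The elements that H1 and H4 promoters share are shown in capitals, with their surroundings in lower case. Of the genes shown, Hist1h1d and Hist1h4c met the count rule in all 3 libraries of 1 group alone, so their calls are no support for a direction. Whether the elements bear on direction was not tested. The windows lie at chr13:23738685-23738711 (Hist1h1c, plus strand), chr13:23554900-23554926 (Hist1h1d, plus), chr13:22041393-22041418 (Hist1h4i, minus) and chr13:23698489-23698514 (Hist1h4c, minus).
Hist1h1c: gaagtgtaacAAACACAagttgggcgc
Hist1h1d: gaggggcaacAAACACAgccacaaggc
Hist1h4i: ttttcactccGGTCCGcaagttccct
Hist1h4c: ttttcaaccaGGTCCGcagaaggcct

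A match is a description of these letters and not a measured binding site. In the H4 pair the element begins 46 bases before the start, and in the H1 pair it begins 112 and 122 bases before it. The RefSeq start of Hist1h1d lies 1770 bases from the GENCODE start.

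Histone RNA was a small part of every library. The 24 members together made up 68.9, 66.8 and 75.5 CPM in the Scr cultures and 30.3, 26.7 and 33.3 CPM in the Yme1l siRNA cultures, so that the groups did not overlap. Hist1h1c alone accounted for much of this difference. Without it, the other 23 members summed to 33.5, 31.6 and 40.5 CPM in Scr and to 22.6, 21.5 and 24.9 CPM after Yme1l siRNA, which also did not overlap. The 44 loci under the rule summed to 3.81 ± 0.872 CPM in Scr and 4.23 ± 0.143 CPM after Yme1l siRNA (SD, n = 3), a difference smaller than the Scr spread.

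Of the 24 members, 23 passed the filter on low counts and were tested. After Yme1l siRNA, 3 were higher, 9 were lower and 11 did not pass the threshold, so that 12 of 23 were called against a background of 58.0% over all loci. The members ranged from -2.31 to 1.77 on the log2 scale around a median of -0.53, beside the median of 0.01 over all tested loci. This median was not stable: it was -0.11 without the joined loci, -0.11 without Scr replicate 3, and 0.06 over the 17 members with a mean under 50 counts. The groups did not overlap for 13 of 23 members, against 65.4% of all tested loci. Most members were scarce. Only 6 had a mean of at least 50 counts and 17 had fewer, and loci with a mean under 50 counts were called less often over the whole table (36.5%) than the others (62.3%). Of the 6 members with a mean of at least 50 counts, 4 fell and 1 rose.

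**Figure D1:**
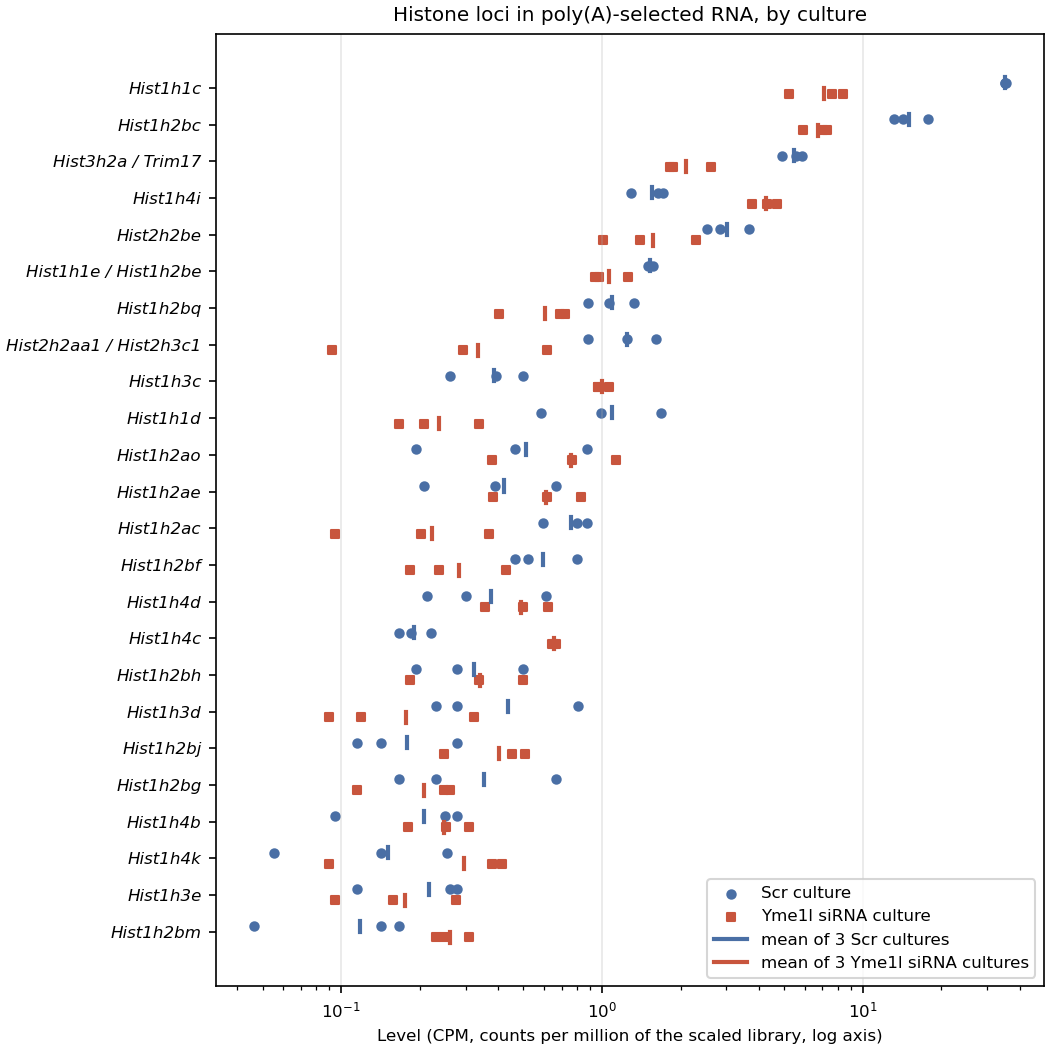
Level of each of the 24 members in each of the 6 cultures, in CPM on a log axis, with circles for Scr, squares for Yme1l siRNA and vertical bars for the means of 3 cultures. Hist1h1c and Hist1h2bc lie furthest right and are lower in all 3 Yme1l siRNA cultures, whereas Hist1h4i, Hist1h3c and Hist1h4c are higher in all 3.

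Hist1h1c and Hist1h1d, the tested loci with H1 genes alone, fell. H1 binds the linker DNA between nucleosomes and helps to compact chromatin. Hist1h1c (XLOC_011418; H1.2), the most abundant member also per length, at 22.6 CPM per kb of merged exons in Scr, stood at 35.4, 35.2 and 35.0 CPM in the Scr cultures and at 7.64, 5.22 and 8.40 CPM after Yme1l siRNA. The Scr cultures were nearly identical and the groups were far apart. Its level fell by 2.31 on the log2 scale (SE 0.16, adjusted p = 1.45e-05), which is 4.97-fold lower. Hist1h1d (XLOC_011407; H1.3) stood at 1.69, 0.582 and 0.995 CPM in Scr and at 0.338, 0.207 and 0.166 CPM after Yme1l siRNA. The groups did not overlap although the Scr cultures ranged widely, and the level fell by 2.19 (SE 0.46, adjusted p = 0.00358). Hist1h1d met the count rule in every library of Scr alone, so its call is no support for a direction. The third H1 gene, Hist1h1e, shares a locus with the H2B gene Hist1h2be, and the counts cannot be assigned to either. This locus stood at 1.50, 1.52 and 1.56 CPM in Scr and at 1.26, 0.943 and 0.973 CPM after Yme1l siRNA. Its groups did not overlap either, but the log2 fold change of -0.53 did not pass the threshold (SE 0.21, adjusted p = 0.0577). Summed over all 5 loci that hold H1 genes alone, H1 went from 36.5 ± 0.584 to 7.69 ± 1.54 CPM (SD, n = 3), of which Hist1h1c alone made up 35.2 ± 0.201 CPM in Scr and 7.09 ± 1.66 CPM after Yme1l siRNA. The 3 H1 loci under the rule stood at 0.0231, 0.194 and 0.332 CPM in Scr and at 0.316, 0.506 and 0.261 CPM after Yme1l siRNA, with overlap and untested.

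Of 4 tested loci with H2A as their histone, 2 fell, none rose and 2 did not pass the threshold, and 1 of the 2 that fell also holds Trim17. Over all tested loci, 29.6% were lower and 28.4% higher. H2A forms a dimer with H2B in the nucleosome. Hist3h2a, which lies outside the large chromosome 13 cluster, starts at the same base as Trim17, and their joined locus (XLOC_006346) stood at 5.57, 4.88 and 5.85 CPM in Scr and at 1.83, 1.86 and 2.61 CPM after Yme1l siRNA. The groups were well separated, and the level fell by 1.37 (SE 0.19, adjusted p = 0.000371). Hist1h2ac (XLOC_012621) stood at 0.878, 0.804 and 0.593 CPM in Scr and at 0.203, 0.368 and 0.0949 CPM after Yme1l siRNA. It fell by 1.75 (SE 0.43, adjusted p = 0.00763), without overlap, but met the count rule in every library of Scr alone. Its call is therefore no support for a direction. Hist1h2ae and Hist1h2ao overlapped between groups and had log2 fold changes of 0.53 (SE 0.45, adjusted p = 0.339) and 0.55 (SE 0.54, adjusted p = 0.405). The joined locus of the H2A gene Hist2h2aa1 and the H3 gene Hist2h3c1 (XLOC_026730) stood at 1.25, 0.887 and 1.61 CPM in Scr and at 0.293, 0.0920 and 0.617 CPM after Yme1l siRNA. It fell by 1.91 (SE 0.52, adjusted p = 0.0123), and none of its 100-base words was unique among annotated transcripts, so that its reads may belong to its near-identical copies. This joined locus also met the count rule in every library of Scr alone, so its call is no support for a direction. Genes on the opposite strand overlap Hist3h2a, Hist1h2ac, Hist1h2ae, Hist1h2ao and Hist2h2aa1, and whether strand was used in the counting is not given in the sources used here, so the values of these loci are uncertain.

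H2B had the most tested members, and 4 of its 7 fell, none rose and 3 did not pass the threshold. Of the 4, Hist1h2bf met the count rule in every library of Scr alone, so its call is no support for a direction. Hist1h2bj, which was not called, met it in every library of Yme1l siRNA alone. The shares over all tested loci were 29.6% lower, 28.4% higher and 58.0% called. Hist1h2bc (XLOC_011415), the second most abundant member, stood at 14.2, 13.1 and 17.8 CPM in Scr and at 7.01, 5.91 and 7.26 CPM after Yme1l siRNA. The groups were well apart, and the level fell by 1.16 (SE 0.14, adjusted p = 0.000221). Its annotated coding transcript has 2 exons and holds no stem-loop letters. The gene starts 250 bases from Hist1h2ac on the other strand, in a head-to-head pair. Both genes of the pair were called lower. However, Hist1h2ac met the count rule in every library of Scr alone, so its call is no support for a direction. Whether the position in a pair bears on the calls was not tested. The other 2 pairs of this kind within the members, Hist1h2ae with Hist1h2bg and Hist1h2bq with Hist1h2ao, lie 175 and 267 bases apart. Of these 4 genes Hist1h2bq was called.

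The other 3 H2B genes that fell did so by less. Hist2h2be, a single-exon gene on chromosome 3 with a poly(A) signal and no stem-loop letters in its transcript, stood at 2.52, 2.83 and 3.67 CPM in Scr and at 1.40, 1.01 and 2.30 CPM after Yme1l siRNA, without overlap. It fell by 0.94 (SE 0.30, adjusted p = 0.0271), and kept the call in 2 of 6 fits that left out 1 library, losing it when Scr replicate 2 (-0.98) or 3 (-0.77) or Yme1l siRNA replicate 1 (-0.86) or 2 (-0.69) was omitted. Hist1h2bf fell by 1.05 (SE 0.40, adjusted p = 0.0487) and Hist1h2bq by 0.85 (SE 0.30, adjusted p = 0.0358), and each kept its call in 1 of 6 such fits. The fit that kept it was the one without Yme1l siRNA replicate 1 for Hist1h2bf (-1.48, against -1.21 to -0.79 in the others) and the one without Scr replicate 2 for Hist1h2bq (-0.98, against -0.99 to -0.63). On all 6 libraries Hist1h2bf also lost its call with DESeq2 (adjusted p = 0.0897), no filter on low counts (0.0541) and upper-quartile factors (0.0519), and Hist1h2bq lost its call with DESeq2 (adjusted p = 0.0547). Only 5.43% of the 100-base words of Hist1h2bq are unique, and its copy Hist1h2br had 37, 0 and 1 counts in Scr and 8, 1 and 0 after Yme1l siRNA. Of the H2B genes that did not pass the threshold, Hist1h2bj had a log2 fold change of 1.19 (SE 0.45, adjusted p = 0.0503), Hist1h2bg of -0.78 (SE 0.58, adjusted p = 0.279) and Hist1h2bh of 0.06 (SE 0.48, adjusted p = 0.928). Hist1h2bj was called in 2 of the 6 fits, those that omitted Scr replicate 2 (log2 fold change 1.61) or Yme1l siRNA replicate 1 (1.44). On all 6 libraries it was also called higher with DESeq2 size factors (adjusted p = 0.0491) and with upper-quartile factors (adjusted p = 0.0496), so whether it rose depended on the scaling. Hist1h2bm, the member that was not tested, had 2, 6 and 6 counts in Scr and 11, 10 and 13 after Yme1l siRNA, and entered by the rule through the latter group.

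The 3 members that rose were an H3 gene and 2 H4 genes. H3 and H4 form the tetramer at the centre of the nucleosome and are deposited first on new DNA. Hist1h3c (XLOC_012624) stood at 0.393, 0.499 and 0.261 CPM in Scr and at 0.969, 0.966 and 1.07 CPM after Yme1l siRNA. The Yme1l siRNA cultures were close to each other and above all Scr cultures, and the log2 fold change was 1.39 (SE 0.29, adjusted p = 0.00338). The other tested H3 genes did not pass the threshold: Hist1h3d had a log2 fold change of -1.30 (SE 0.64, adjusted p = 0.111), with 0.806 CPM in Scr replicate 3 against 0.231 and 0.277 in the other Scr cultures, and Hist1h3e one of -0.28 (SE 0.52, adjusted p = 0.667). Without Yme1l siRNA replicate 2, Hist1h3d was called lower (log2 fold change -2.04).

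Of 5 tested H4 genes, 2 rose, none fell and 3 did not pass the threshold, beside 28.4% of all tested loci higher and 29.6% lower. All 5 fold changes were positive, but Hist1h4c and Hist1h4d met the count rule in every library of Yme1l siRNA alone. Hist1h4b changed sign without Scr replicate 3 (-0.102). The shared sign is therefore no support for a direction of the family. Hist1h4i (XLOC_012559) was the most abundant of the 5 genes. It stood at 1.29, 1.72 and 1.64 CPM in Scr and at 4.28, 3.75 and 4.70 CPM after Yme1l siRNA. The lowest Yme1l siRNA culture was above the highest Scr culture, and the log2 fold change was 1.45 (SE 0.19, adjusted p = 0.000262), which is 2.74-fold higher. Per kb of merged exons, Hist1h4i went from 2.13 ± 0.310 to 5.84 ± 0.654 CPM (SD, n = 3), beside 4.54 ± 1.06 CPM per kb for Hist1h1c after Yme1l siRNA. The cultures of the 2 genes overlapped there, whereas in Scr Hist1h1c was far above Hist1h4i. Hist1h4c (XLOC_012622) stood at 0.185, 0.222 and 0.166 CPM in Scr and at 0.654, 0.644 and 0.664 CPM after Yme1l siRNA, a log2 fold change of 1.77 (SE 0.29, adjusted p = 0.000978). It met the rule for members through the Yme1l siRNA group.

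Hist1h4b, Hist1h4d and Hist1h4k had log2 fold changes of 0.26 (SE 0.46, adjusted p = 0.658), 0.42 (SE 0.43, adjusted p = 0.427) and 0.91 (SE 0.65, adjusted p = 0.259), and their groups overlapped. Summed over all 13 loci that hold H4 genes alone, H4 went from 3.33 ± 0.271 to 6.92 ± 0.283 CPM, and H3 over its 11 loci from 1.67 ± 0.338 to 2.36 ± 0.310 CPM (SD, n = 3). H2A over its 19 loci, the one with Trim17 included, went from 8.10 ± 0.571 to 4.58 ± 0.384 CPM. The locus with Trim17 alone went from 5.43 ± 0.502 to 2.10 ± 0.442 CPM, so the fall of this sum cannot be read as one of the H2A family. H2B over its 18 loci went from 21.9 ± 3.32 to 11.4 ± 1.36 CPM. The H3 sum leaves out the joined Hist2h2aa1 and Hist2h3c1 locus, which went from 1.25 ± 0.362 to 0.334 ± 0.265 CPM (SD, n = 3). The rise of the H3 sum therefore cannot be read as one of the H3 family. The sums of the families did not overlap between the groups, and were not tested as sums. For H3 the gap was narrow, with a highest Scr culture of 2.01 CPM and a lowest Yme1l siRNA culture of 2.03 CPM.

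**Figure D2:**
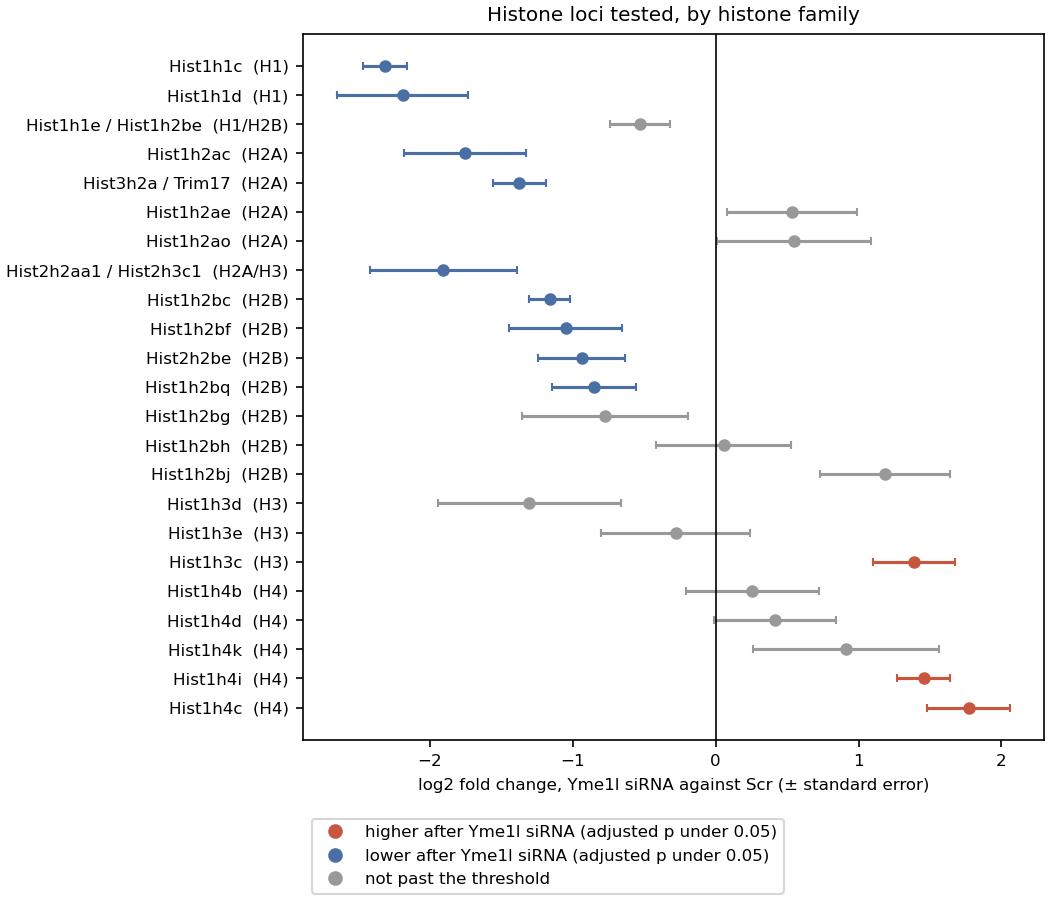
Log2 fold change of Yme1l siRNA against Scr with its standard error for the 23 tested members, ordered by histone family. All called H1, H2A and H2B loci lie left of 0, from -2.31 for Hist1h1c to -0.85 for Hist1h2bq, and the called H3 and H4 loci lie right of it, from 1.39 to 1.77; the joined Hist2h2aa1 / Hist2h3c1 locus also lies on the left. The calls of loci that met the count rule through 1 group alone are no support for a direction.

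The calls were also counted by transcript feature, and are to be read against 28.4% of all loci higher and 29.6% lower, and against 36.5% called among loci with a mean under 50 counts and 62.3% among the others. Of the 8 tested members with an annotated poly(A) signal, 5 fell, 1 rose and 2 did not pass the threshold, with a median log2 fold change of -0.89. Of the 15 without one, 4 fell, 2 rose and 9 did not pass the threshold, with a median of 0.06. The members with a signal were also more abundant, with a median of 74.4 counts against 18.0. Of the 19 members with stem-loop letters in an annotated transcript 6 fell and 3 rose, and of the 4 without them 3 fell and none rose. Absence here depends on where the annotated transcript ends, because sequence past it was not searched. Copy number of the genes was a further limit. In 18 members at least 50% of the 100-base words of a transcript were unique, of which 7 fell and 3 rose, and in the other 5 members 2 fell and none rose. These tallies include Hist1h1d, Hist1h2ac, Hist1h2bf, Hist1h4c and the Hist2h2aa1 and Hist2h3c1 locus, which met the count rule through 1 group alone. Their calls are no support for a direction. Of the called members without a poly(A) signal, only Hist1h2bc and Hist1h3c met the rule in both groups. Whether abundance, tail signal or sequence copies bear on the direction of a member was not tested.

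The rule has a count threshold, and a member that met it through 1 group had its direction in part set by the choice. In 8 members all 3 libraries of both groups reached 10 counts. Of these 5 fell (Hist1h1c, Hist3h2a with Trim17, Hist1h2bc, Hist2h2be and Hist1h2bq), 2 rose (Hist1h3c and Hist1h4i) and 1 did not pass the threshold, beside 29.6% of all tested loci lower and 28.4% higher. In 5 members all 3 libraries of Scr alone reached it, and 4 of these were lower: Hist1h1d, Hist1h2ac, the Hist2h2aa1 and Hist2h3c1 locus, and Hist1h2bf. In 6 members all 3 libraries of Yme1l siRNA alone reached it, of which Hist1h4c was higher. The calls of these 5 loci are therefore no support for a direction. In the other 5 members neither group reached it in all 3 libraries, and none was called. The 5 members just inside it, with exactly 3 libraries at 10 counts or more, were Hist1h2bm, Hist1h4b, Hist1h4k, Hist1h3e and Hist1h4c. The 5 loci just outside, with 2 such libraries, were Hist1h4j with 17, 4 and 18 counts in Scr and 7, 3 and 2 after Yme1l siRNA, Hist1h3g with 1, 6 and 3 against 16, 10 and 7, Hist1h2bb with 5, 5 and 9 against 12, 3 and 17, Hist1h1b with 1, 5 and 6 against 13, 13 and 8, and Hist1h2bl with 47, 0 and 2 against 0, 23 and 1. Thus Hist1h1b, which encodes H1.5, was near the limit of detection while its relative Hist1h1c was the most abundant member. Of the other 39 loci under the rule, 11 had 1 library at 10 counts or more and 28 had none, including 3 with no count in any library. None of the 44 loci was tested.

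The genes of S phase, in which histone genes are normally transcribed, moved in 1 direction. All 23 tested genes of a list of 25 rose, with a median log2 fold change of 0.80, against 28.4% of all loci that were higher. The other 2, Cdt1 and Gins2, had no locus of their own. Tk1, a thymidine kinase of the salvage pathway, rose from 60.3, 59.7 and 66.1 CPM to 177, 184 and 175 CPM (log2 fold change 1.53, SE 0.07, adjusted p = 4.91e-06). Tyms, which makes thymidylate, rose by 1.50, and Prim1, the catalytic subunit of primase, by 1.22.

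The activators of histone gene transcription also rose for the most part, with 9 of 13 higher, 1 lower and a median log2 fold change of 0.47, against 28.4% of all loci higher and 29.6% lower. Ccne2 and Ccne1, the E-type cyclins that with CDK2 switch on histone transcription at the start of S phase, rose by 1.73 (SE 0.10, adjusted p = 7.67e-06) and 1.30 (SE 0.08, adjusted p = 8.68e-06). Cdc25a, a phosphatase that activates CDK2, rose by 0.62 and Cdk2 by 0.55. Npat, the coactivator that sits on histone gene clusters and is phosphorylated by cyclin E and CDK2, stood at 52.0, 50.6 and 55.1 CPM in Scr and at 69.8, 71.4 and 70.0 CPM after Yme1l siRNA. Its groups did not overlap, and it rose by 0.42 (SE 0.06, adjusted p = 0.000593). Hinfp, which binds the H4 element, had a log2 fold change of -0.02 and did not pass the threshold (adjusted p = 0.863); it was chosen after its value was seen.

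In the processing of histone 3′ ends, 11 of 17 genes were higher and 1 was lower, with a median of 0.39, beside the same 28.4% and 29.6%. Slbp, the stem-loop binding protein, stood at 51.6, 54.8 and 58.6 CPM in Scr and at 73.8, 77.9 and 74.9 CPM after Yme1l siRNA. All Yme1l siRNA cultures were above the Scr cultures, and it rose by 0.46 (SE 0.07, adjusted p = 0.000665). Casp8ap2 (FLASH), which with LSM11 recruits the cleavage complex to histone pre-mRNA, rose by 0.94 (SE 0.09, adjusted p = 4.82e-05), Snrpe, a core protein of small nuclear ribonucleoproteins, by 0.79, Cpsf2, a subunit of the cleavage complex, by 0.70, and Srrt (ARS2) by 0.68. The proteins particular to the U7 particle did not pass the threshold: Lsm10 had a log2 fold change of -0.20 (adjusted p = 0.123) and Lsm11 of -0.08 (adjusted p = 0.636). Nor did Zfp473 at 0.22 (adjusted p = 0.503) or the endonuclease gene Cpsf3 at 0.14 (adjusted p = 0.175), which was called higher without Yme1l siRNA replicate 2 (0.22).

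Histone mRNA decay is set off by oligouridylation and carried out by the LSM1 to LSM7 ring, the exonuclease ERI1 and general decay factors. Of 16 genes of this list 10 were higher and 1 was lower, with a median of 0.35, again beside 28.4% and 29.6% of all loci. Lsm3, Lsm1 and Lsm5 rose by 0.67, 0.50 and 0.79, Exosc10, a nuclease of the exosome, by 0.49, and Upf1, the helicase that binds histone mRNA at the end of S phase, by 0.37. Eri1 rose by 0.26 (SE 0.08, adjusted p = 0.0187), a call lost in 4 of 6 fits that left out 1 library, when Scr replicate 1 (0.23) or 2 (0.24) or Yme1l siRNA replicate 1 (0.27) or 3 (0.19) was omitted. Xrn1, the 5′ to 3′ exonuclease, was the gene that fell (log2 fold change -0.44); it was chosen after its value was seen. Among 20 genes of general cleavage and polyadenylation, which make the tailed form, 9 were higher and 3 were lower with a median of 0.17, so that 12 of 20 were called, close to the 58.0% of all loci. Besides Cpsf2, Pcf11 rose by 0.55, Rbbp6 by 0.50 and Cpsf4 by 0.43.

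Histone genes listed as not tied to replication, whose mRNAs are in general polyadenylated, were mostly lower: 8 of 11 fell, against 29.6% of all loci, 2 were higher and the median was -0.33. H1f0, the linker histone H1.0 of non-dividing cells, stood at 510, 491 and 420 CPM in Scr and at 266, 242 and 276 CPM after Yme1l siRNA. Its groups did not overlap, and it fell by 0.86 (SE 0.09, adjusted p = 0.00011). Hist1h1c, the locus of an H1 gene alone that met the count rule in both groups, was also lower. H2afx, whose product is phosphorylated at DNA breaks and whose gene also carries the stem-loop letters, fell by 1.02 (SE 0.18, adjusted p = 0.00147). Because of these letters, H2afx is no clear case of a gene apart from replication. H2afv fell by 0.53, and the H3.3 genes H3f3a and H3f3b fell by 0.30 and 0.29 (adjusted p = 0.0131 and 0.0285). The call of H3f3a was lost when Scr replicate 2 (-0.25) or Yme1l siRNA replicate 1 (-0.28) was left out, and that of H3f3b when Scr replicate 1 or 2 (both -0.25) or Yme1l siRNA replicate 1 (-0.30) or 2 (-0.26) was left out. The genes that rose were H2afy, for macroH2A1, by 0.63, and Cenpa, the H3 variant of centromeres, by 0.57. H2afz had a log2 fold change of 0.38 (SE 0.18, adjusted p = 0.101), and was called higher without Yme1l siRNA replicate 1 (0.52), with DESeq2 (adjusted p = 0.0335) and with no filter on low counts (edgeR, adjusted p = 0.0498).

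Histone chaperones carry new histones to DNA. Of 25 genes 13 were higher and 4 were lower, with a median of 0.25, against 28.4% of all loci higher, 29.6% lower and 58.0% called. Asf1b, which hands H3 and H4 to replication-coupled assembly, rose from 16.4, 16.7 and 19.6 CPM to 39.0, 43.5 and 42.1 CPM (log2 fold change 1.24, SE 0.09, adjusted p = 2.06e-05). Ssrp1, a subunit of the FACT complex, rose by 1.11, Dnajc9, a co-chaperone of H3 and H4, by 0.91, and Mms22l, which acts at stalled forks, by 0.80. Several named genes of these lists overlap a gene on the opposite strand, among them Ccne2, Cdk2, Cpsf2, Slbp, Upf1, Xrn1, H1f0, H2afx, H2afy, H3f3a, Ssrp1 and Tk1, and their values carry the same uncertainty about strand as the histone loci.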

How the data were processed

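RNA from 3 Scr and 3 Yme1l siRNA cultures was poly(A)-selected and made into stranded paired-end libraries. Per the methods and the submitters' processing notes, the authors mapped reads to mm10 (GRCm38, Ensembl) with HISAT2 2.0.4, assembled transcripts with StringTie 1.3.3 and used Cuffdiff 2.2.1. The deposited table holds raw counts per locus; the program that counted, and its use of strand and of multi-mapping reads, are not given in the sources used here. A second deposited table holds the authors' own comparison (group levels, fold changes and p-values) and was used for identifiers only. Groups came from the labels.

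Loci were filtered with filterByExpr (minimum count 10, minimum total 15), scaled by TMM and tested with edgeR 4.0.16 quasi-likelihood F-tests in R 4.3.3 over all 6 libraries without covariates, with Benjamini-Hochberg adjustment over all 14499 loci tested and a threshold of 0.05. CPM are counts over the TMM-scaled library total, times 1000000. DESeq2 1.42.0 and limma 3.58.1 (voom) served as alternatives, beside other scalings, filters, a replicate block and leaving out each library. The code was tested on simulated data. Total counts of 37260605 to 45205207 per library set the precision: a locus at 10 counts lies near 0.2 to 0.3 CPM, where counting error is large. Cultures of the same group were further apart than sampling of reads allows (chi-square per degree of freedom 10.4 to 75.5), and p-values measure the spread between cultures of 1 line.

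Stem-loops, poly(A) hexamers and 100-base words were searched in GENCODE M21 transcripts, and promoters in RefSeq GRCm38.p6. Named genes were Yme1l1, in each histone family the most abundant member, those with extreme fold changes and those past no threshold, in each list the 4 genes with the smallest adjusted p, and fixed regulators such as Slbp, Npat, Lsm10 and H2afz. One gene that this rule names is not reported here. The members and lists were chosen with earlier results of these data known. No test was made over a list.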

Additional observations from a re-analysis of the deposited data

How the results depend on the processing

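Most members had few counts, and this limits what could be called. Over 18 alternatives, the member counts stayed within 1.5 times 3 higher and 9 lower except as follows. With a mean of at least 50 counts required before the fit, or read from the original fit, 1 member was higher and 4 were lower (median log2 fold change -1.02 and -1.05), since fewer loci were tested. At an adjusted p under 0.01, 5 members were lower, 5 replication-independent histone genes, 2 chaperones and 0 genes of histone transcription. The member median was -0.42 with no filter on low counts and -0.11 without the joined loci.

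Leaving out 1 library gave 3 to 4 members higher, 6 to 7 lower and a median of -0.67 (without Yme1l siRNA replicate 1) to -0.11 (without Scr replicate 3). It gave 0 to 1 transcription genes lower, 5 to 8 replication-independent histone genes lower and 2 to 6 chaperones lower. Of the called members, 9 kept their calls in all 6 of these fits, and Hist1h2bf, Hist2h2be and Hist1h2bq did not. The genes that changed sign had not passed the threshold. Over these 6 fits the log2 fold change of Lsm11 ran from -0.223 to 0.0457 (highest without Yme1l siRNA replicate 2), of Hist1h2bg from -1.10 to 0.0464 (highest without Scr replicate 3), of Hist1h4b from -0.102 (without Scr replicate 3) to 0.539, of Hist1h2bh from -0.320 (without Yme1l siRNA replicate 3; -0.0570 and -0.193 without Scr replicates 1 and 2) to 0.503, and of Hist1h3e from -0.740 to 0.00655 (highest without Yme1l siRNA replicate 3). The cause was not tested.

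The replicate numbers were not treated as pairs. Deviations of same-numbered cultures correlated at 0.0409, 0.116 and 0.192. Scr replicate 1 correlated better with Yme1l siRNA replicate 2 (0.0910), whereas Scr replicates 2 and 3 each correlated best with the culture of the same number. These values do not settle whether the cultures were paired. With a replicate block 4 members were higher and 7 were lower (median -0.535): Hist1h2bj gained a call (adjusted p = 0.0357), and Hist1h2bf (0.0709) and Hist1h2bq (0.0566) lost theirs. Of the other named genes, the block changed the call of H2afz (0.39, adjusted p = 0.00239) and no other. DESeq2 gave 3 higher and 7 lower, and voom 3 and 9. Summing Hist1h2bq with its copy Hist1h2br, an alternative chosen after seeing the data, gave 1.38 ± 0.516 CPM in Scr and 0.673 ± 0.252 CPM after Yme1l siRNA (SD, n = 3). The summed groups overlapped, at 1.92, 0.887 and 1.35 CPM in Scr and 0.902, 0.713 and 0.403 CPM after Yme1l siRNA.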
